A study of Mus musculus with 3 samples.

Results

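Nr4a1, Klf2, Klf4, Cebpa, Cebpb, Irf8, Spi1, Pou2f2 and Tcf7l2 encode 9 transcription factors of monocyte fate, and they were taken by symbol from the 32285 features counted in each of 3 scRNA-seq libraries of mouse peripheral blood. The study asked how the leukocytes of the blood change while a transplanted leukemia grows. The naive library came from WT mice without leukemia, and the D11 and D14 libraries came from WT mice at day 11 and day 14 after engraftment with BBC2 cells. BBC2 is a single line of pro-B leukemia cells of the stem cell leukemia and lymphoma syndrome (SCLL), driven by a BCR-FGFR1 fusion, so that both leukemic libraries rest on 1 leukemia. The recipients were female Balb/C mice, 6 to 8 weeks old when engrafted. Red cells had been lysed and dead cells removed before the cells were captured in all 3 libraries. There was 1 library per condition and the number of mice behind each is not given in the sources used here, so no test between conditions was possible and a difference between conditions cannot be told apart from a difference between libraries.

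Blood monocytes of the mouse fall into classical cells (cMono), which leave the bone marrow and carry Ly6C, and non-classical cells (ncMono), which patrol the vessel wall and largely derive from classical cells. The factors act along that path. PU.1, the product of Spi1, and the C/EBP proteins set up the myeloid program, IRF8 directs progenitors towards monocytes and dendritic cells, and KLF4 and the orphan nuclear receptor NR4A1 are known to be needed for normal numbers of monocytes, NR4A1 for the non-classical cells in particular, together with C/EBPβ. KLF2 restrains activation in monocytes and lymphocytes, POU2F2 (OCT2) is best known from B cells, and TCF7L2 is the partner of β-catenin at Wnt target genes.

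Cells were called ncMono-like or cMono-like when at least 5 of 8 markers of that class were found and at least 2 more than of any other class. None of the 9 genes is a marker, so they had no part in the choice of cells. The ncMono gate held 120, 191 and 610 cells in the naive, D11 and D14 libraries and the cMono gate held 132, 221 and 110. The UMIs (unique molecular identifiers, 1 for each captured RNA molecule) of a gene were summed over the cells of a gate and divided by all UMIs of those cells, which gives CPM, the count scaled to 1000000 UMIs. Brackets hold exact 95% intervals, Poisson for a level and conditional binomial for a ratio, and cover counting error only. The summed level of the 8 ncMono markers (Ace, Treml4 and others) was 3615, 4271 and 3740 CPM in the ncMono gate against 304, 383 and 455 CPM in the cMono gate, and that of the 8 cMono markers (Vcan, Ccr2, Ly6c2 and others) was 6336, 6374 and 6483 CPM in the cMono gate against 450.5, 481 and 382 CPM in the ncMono gate. These levels follow from the gates, which ask for the same markers, and are no check of the label. The cells differed in depth: the median was 8155, 8162 and 9454.5 UMIs in ncMono-like and 12708, 13669 and 20930.5 UMIs in cMono-like cells. Barcodes shared between libraries numbered 12 to 18 per pair.

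The promoters of Nr4a1 and Cebpb are shown because, among the windows of the 9 genes, theirs held the most matches to the motif below, so that they were chosen by that number and nothing is read from it. A promoter window is here the 250 bases before a RefSeq start (build GRCm38.p6), and 8 of the 9 genes had at least 1 such window. The capitals mark TGACG or its reverse complement CGTCA, the half-site of the cAMP response element (CRE), searched on both strands. The Nr4a1 window is chr15:101266596-101266845 on the plus strand, inside the span that GENCODE gives the gene, and that of Cebpb is chr2:167688665-167688914 on the plus strand.
Nr4a1: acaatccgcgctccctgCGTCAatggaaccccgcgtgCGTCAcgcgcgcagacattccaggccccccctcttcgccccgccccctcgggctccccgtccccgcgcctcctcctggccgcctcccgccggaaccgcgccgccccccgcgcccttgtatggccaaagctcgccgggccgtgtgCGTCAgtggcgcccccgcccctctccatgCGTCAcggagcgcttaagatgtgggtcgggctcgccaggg
Cebpb: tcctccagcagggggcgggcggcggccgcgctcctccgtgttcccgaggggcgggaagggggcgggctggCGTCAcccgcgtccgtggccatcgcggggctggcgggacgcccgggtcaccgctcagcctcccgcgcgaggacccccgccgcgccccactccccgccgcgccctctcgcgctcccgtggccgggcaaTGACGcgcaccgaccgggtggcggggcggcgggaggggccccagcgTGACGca
There were 4 matches before Nr4a1 and 3 before Cebpb. At least 1 match was found in 17.8% of all 32851 windows, at least 3 in 0.688% and at least 4 in 0.137%. Klf2, Klf4 and 1 of the windows of Tcf7l2 had 1 match each, the other Tcf7l2 window had none, and the windows of Cebpa, Irf8 and Pou2f2 had none. The GC box GGGCGG, read on both strands, was found 3 times before Nr4a1 and 5 times before Cebpb. It was found 6 times in 1 of the windows of Tcf7l2 and 4 times before Klf4. At least 1 GC box occurs in 32.7% of windows, and the shares at higher counts were not computed. These matches describe the letters of the windows, and binding was not measured.

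Nr4a1 marked the ncMono-like cells in every library. Its level was 402 [365 to 442], 454 [423 to 487] and 529.5 [512 to 548] CPM in ncMono-like cells and 66.2 [54.6 to 79.5], 90.0 [79.6 to 101] and 99.2 [87.2 to 112] CPM in cMono-like cells of the naive, D11 and D14 libraries. All ncMono values lay above all cMono values, at 6.08-fold [4.93 to 7.54], 5.04-fold [4.39 to 5.81] and 5.34-fold [4.69 to 6.10]. The Nr4a1 gene (ENSMUSG00000023034) lies on chromosome 15 from 101254269 to 101274795 on the plus strand of GRCm38.

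The Krüppel-like factors differed less between the gates. Klf4 was at 458, 362 and 366 CPM in ncMono-like and at 197, 213 and 168 CPM in cMono-like cells, so that the ncMono values were higher in each library, by 2.32-fold [2.02 to 2.67], 1.70-fold [1.52 to 1.90] and 2.18-fold [1.96 to 2.42]. Klf2 was at 896, 757 and 583 CPM in ncMono-like and at 744, 639 and 383 CPM in cMono-like cells. Its ratios of 1.21 [1.11 to 1.31], 1.18 [1.10 to 1.27] and 1.52 [1.42 to 1.64] were the nearest to 1 among the 9 genes in the naive and D11 libraries, and both gates had their lowest value at D14.

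The C/EBP genes lay on opposite sides. Cebpb was at 1401, 2035 and 1833 CPM in ncMono-like and at 679, 1011 and 922 CPM in cMono-like cells, a ratio of 2.06 [1.91 to 2.23], 2.01 [1.92 to 2.11] and 1.99 [1.90 to 2.08]. Cebpa was at 37.0 [26.3 to 50.6], 46.6 [37.1 to 57.9] and 39.4 [34.7 to 44.6] CPM in ncMono-like and at 136 [119 to 154], 126 [113 to 139] and 55.6 [46.7 to 65.6] CPM in cMono-like cells. The cMono side was higher each time, and the ratio of ncMono to cMono was 0.272 [0.189 to 0.383] in naive, 0.371 [0.289 to 0.473] at D11 and, nearest to 1, 0.709 [0.574 to 0.879] at D14. The ncMono intervals of Cebpa overlapped across the libraries, while the cMono value at D14 lay below the others without overlap.

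Spi1 and Irf8, whose products bind DNA together at many myeloid genes, also parted. Spi1 was at 969, 896 and 766 CPM in ncMono-like and at 473, 453 and 482 CPM in cMono-like cells, and its ratio was 2.05 [1.87 to 2.25], 1.98 [1.84 to 2.13] and 1.59 [1.49 to 1.69]. Irf8 was at 133, 117 and 117 CPM in ncMono-like and at 259.5, 191 and 172 CPM in cMono-like cells, with ratios of 0.512 [0.420 to 0.620], 0.609 [0.517 to 0.715] and 0.679 [0.602 to 0.767]. As for Cebpa, the ratio of Irf8 was nearest to 1 at D14.

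Tcf7l2 and Pou2f2 set the gates furthest apart together with Nr4a1. Tcf7l2 (ENSMUSG00000024985, chromosome 19 from 55741820 to 55933654, plus strand) was at 396 [359 to 436], 490.3 [458 to 524] and 598 [579 to 617] CPM in ncMono-like and at 16.8 [11.3 to 24.2], 20.4 [15.7 to 26.2] and 56.0 [47.1 to 66.1] CPM in cMono-like cells. The ratio was 23.5 [16.2 to 35.6], 24.0 [18.5 to 31.6] and 10.7 [9.02 to 12.7], so that it was smaller at D14 beyond the counting intervals. Pou2f2 (ENSMUSG00000008496, chromosome 7 from 25087344 to 25179726, minus strand) was at 1460.4, 1637 and 1503 CPM in ncMono-like and at 301, 302 and 215 CPM in cMono-like cells. Its ratio went the other way, from 4.86 [4.39 to 5.38] and 5.43 [5.04 to 5.85] to 6.99 [6.40 to 7.64].

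**Figure D1:**
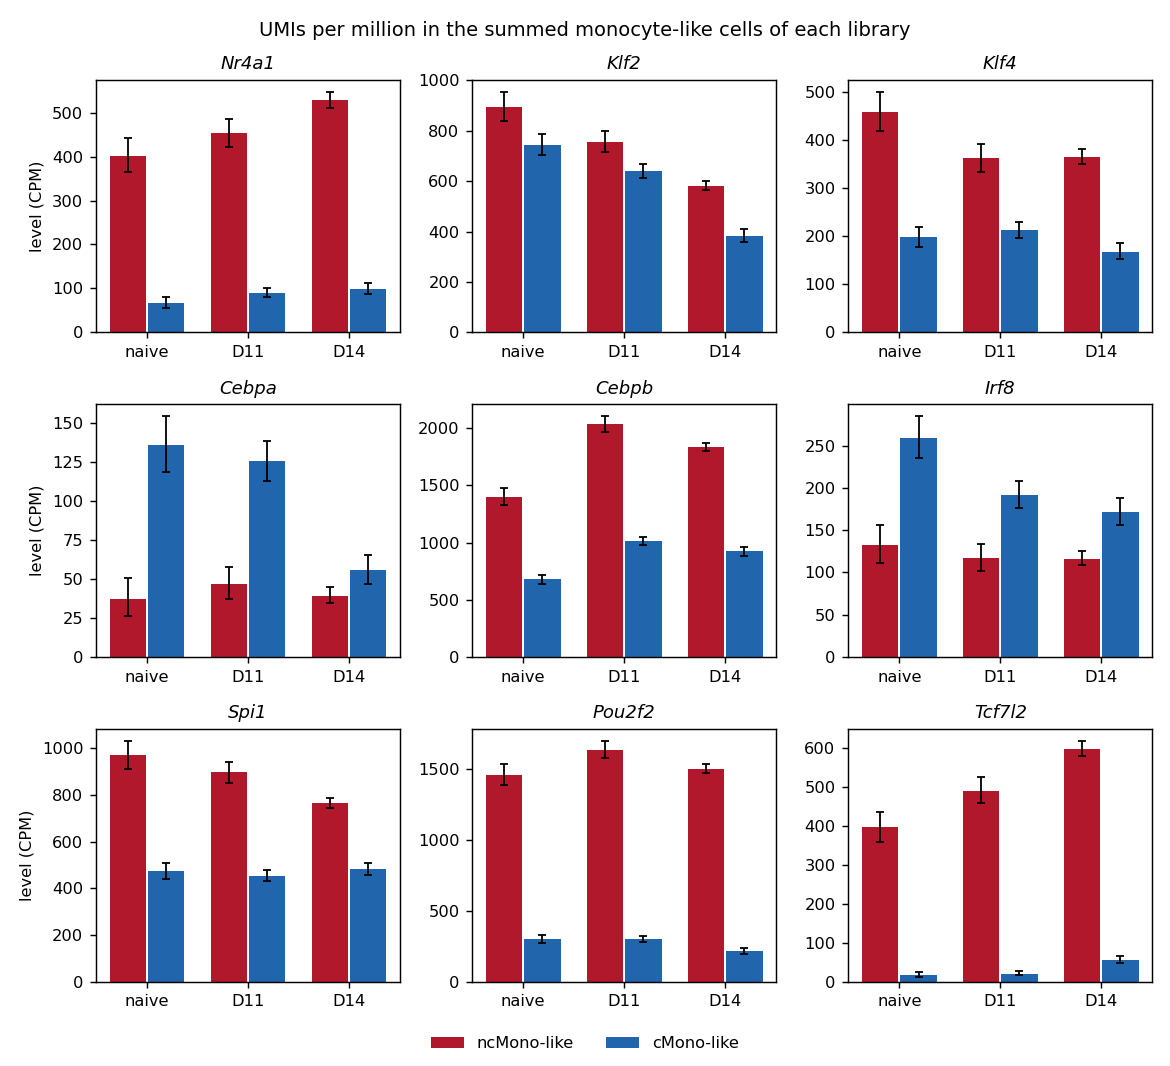
Level of each of the 9 genes (vertical axis, CPM, each panel with its own scale from 0) in ncMono-like (red) and cMono-like (blue) cells of the naive, D11 and D14 libraries; error bars are exact 95% Poisson intervals of the summed UMIs. Cebpa and Irf8 are higher in cMono-like cells, the other genes in ncMono-like cells, and the blue bar of Cebpa drops to 55.6 CPM at D14.

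Of the 9 genes, 6 were at least 1.5-fold higher in ncMono-like cells and 2 at least 1.5-fold lower in naive blood, where 23.3% and 17.2% of 6191 genes passed these limits (all those averaging 20 CPM or more). At D11 the counts were again 6 and 2, beside 18.7% and 16.3% of all genes, and at D14 they were 7 and 0, beside 23.6% and 21.1%. The median log2 ratio of the 9 genes was 1.05, 0.99 and 0.99, against 0.10, 0.07 and 0.08 over all genes. The 9 genes were chosen with earlier results of these data known. The study names Tcf7l2 and Pou2f2 among genes that define ncMono, and lists Nr4a1 as a marker of ncMono. Nothing is therefore read from these counts and medians beside the values of all genes. The ratios of CPM compare shares of RNA. A cMono-like cell held more UMIs, since the ratio of mean UMIs per cell, ncMono over cMono, was 0.673, 0.670 and 0.455 (log2 shifts of -0.57, -0.58 and -1.13 for every gene). Counted as UMIs per cell, Nr4a1, Pou2f2 and Tcf7l2 stayed higher in ncMono-like cells in each library, whereas Klf2 was lower there in each (0.811, 0.794 and 0.693) and at D14 the ratios of Klf4, Cebpb and Spi1 turned to 0.992, 0.906 and 0.724. RNA content of the cells and its capture cannot be told apart here.

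**Figure D2:**
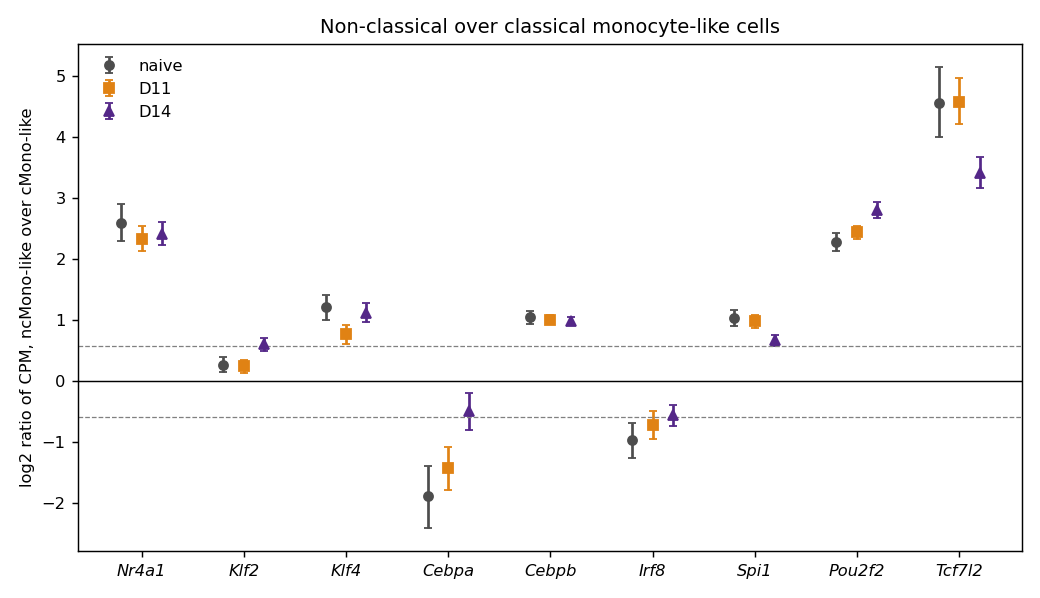
Log2 ratio of CPM in ncMono-like over cMono-like cells (vertical axis) for each gene in the naive (circles), D11 (squares) and D14 (triangles) libraries, with exact 95% intervals for counting error; dashed lines mark 1.5-fold. Tcf7l2 drops from 24.0-fold at D11 to 10.7-fold at D14 while Cebpa comes nearer to the line of no difference.

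Within ncMono-like cells the 9 genes mostly stayed within 1.5-fold of naive. At D11 none was past 1.5-fold in either direction, where 7.05% of all genes were higher and 8.86% lower. The nearest was Cebpb at 1.45-fold [1.37 to 1.55]. At D14 Tcf7l2 was 1.51-fold [1.36 to 1.67] of naive and Klf2 0.650-fold [0.605 to 0.699], 1 gene in each direction, beside 7.97% and 8.41% of all genes. Both lay near the limit and both were ordered by day: Tcf7l2 had its lowest value in naive and its highest at D14, and Klf2 the reverse. Nr4a1 was at 1.13-fold [1.002 to 1.27] and 1.32-fold [1.19 to 1.46], Spi1 at 0.925-fold [0.854 to 1.002] and 0.791-fold [0.739 to 0.847], and Klf4 at 0.790-fold [0.701 to 0.891] and 0.798-fold [0.723 to 0.882]. Pou2f2, Irf8 and Cebpa had intervals at D14 that included 1. Both leukemic libraries share the naive control, so their ratios are not independent of each other.

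Set directly against D11, the D14 ncMono-like cells had 1.22-fold [1.13 to 1.31] Tcf7l2, 1.17-fold [1.08 to 1.26] Nr4a1 and 0.770-fold [0.723 to 0.821] Klf2. No gene of the 9 was past 1.5-fold here, where 5.49% of all genes were higher and 3.58% lower.

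In cMono-like cells some of the genes stood further from naive at D14 than at D11, while 5 of the 9 stayed within 1.5-fold at D14. None was past 1.5-fold at D11, where 4.43% of all genes were higher and 4.43% lower, and Cebpb was nearest at 1.49-fold [1.39 to 1.60]. At D14 Tcf7l2 was 3.32-fold [2.22 to 5.15] of naive, the only gene of the 9 higher, while Cebpa at 0.409-fold [0.329 to 0.507], Klf2 at 0.515-fold [0.473 to 0.560] and Irf8 at 0.661-fold [0.578 to 0.756] were lower. Of all genes, 13% were past this limit on the higher and 10.7% on the lower side. Nr4a1 was just inside the limit at 1.498-fold [1.20 to 1.89], Pou2f2 was at 0.715-fold [0.633 to 0.809] and Spi1 at 1.02-fold [0.932 to 1.12]. Cebpb, at 1.36-fold [1.27 to 1.46], was nearer to naive than at D11. Against D11, Tcf7l2 was at 2.74-fold [2.02 to 3.76], Cebpa at 0.443-fold [0.362 to 0.539] and Klf2 at 0.599-fold [0.554 to 0.648], with 7.27% of all genes higher and 6.28% lower. Cells of this gate held 1.74 times as many UMIs at D14 as in naive, a log2 shift of 0.80 for every gene. Counted per cell, Irf8, Klf4 and Pou2f2 turned to 1.15-fold, 1.48-fold and 1.25-fold of naive, Cebpa was at 0.713-fold and Tcf7l2 at 5.79-fold. Klf2, at a log2 ratio of -0.96 by CPM, came close to naive per cell. Nr4a1, Cebpb and Spi1 passed 1.5-fold on the higher side, and no gene did on the lower.

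**Figure D3:**
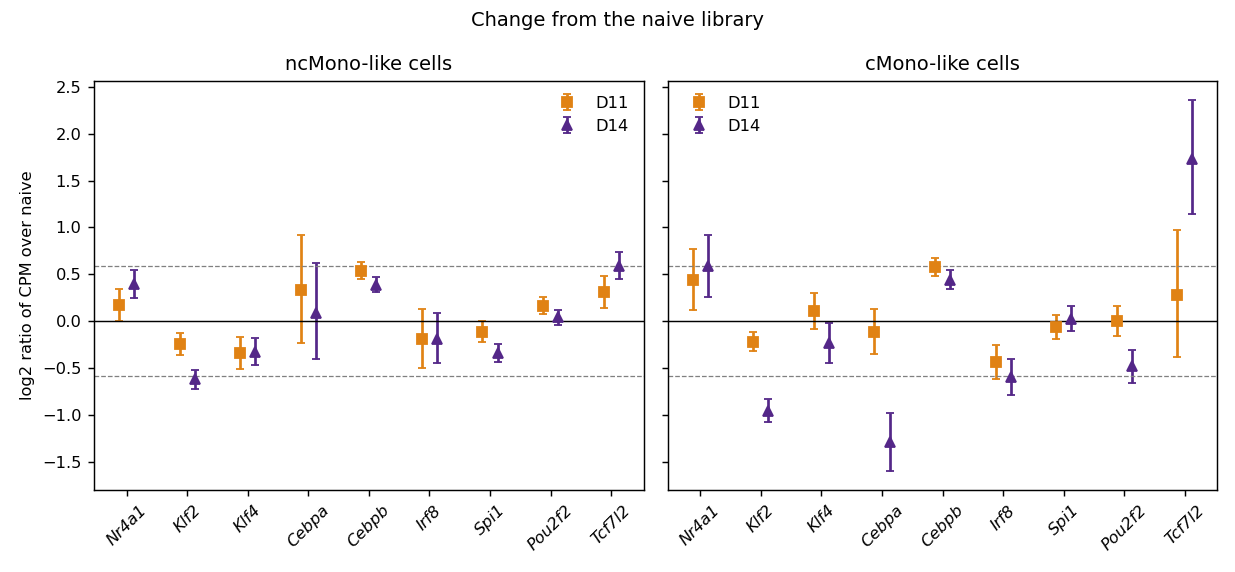
Log2 ratio of CPM over the naive library (vertical axis) for each gene in ncMono-like (left) and cMono-like cells (right) at D11 (squares) and D14 (triangles), with exact 95% intervals for counting error; dashed lines mark 1.5-fold. The D14 points of Tcf7l2 (3.32-fold), Cebpa (0.409-fold) and Klf2 (0.515-fold) stand apart in cMono-like cells, while most points of ncMono-like cells lie between the dashed lines.

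Markers of other cells also differed from naive in the cMono gate, already at D11. The summed level of the 8 neutrophil markers there was 264 CPM in naive, 1762 at D11 and 7174 at D14, with 1, 0 and 0 of the 8 at 0, against 1055, 764 and 488 CPM in the ncMono gate. Hemoglobin genes took 0.242%, 0.802% and 0.809% of UMIs of the cMono gate and 0.0156%, 0.984% and 0.743% of those of the ncMono gate. The part of either in the results was not tested. The summed level of the 8 ncMono markers in the cMono gate, given above, was also highest at D14, and the median cell of this gate held 2, 2 and 4 of them and 1, 2 and 4 of the neutrophil markers. Neutrophil-like cells themselves held Tcf7l2 at 47.8, 54.7 and 45.7 CPM. Pparg, a nuclear receptor of lipid metabolism chosen here after its values were seen, was at 15.1, 9.23 and 9.60 CPM in the cMono gate against 789, 718 and 642 CPM in ncMono-like cells. What part admixed cells or RNA have in the Tcf7l2 values was not tested.

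Tcf7l2 gave 29, 62 and 140 UMIs in the 132, 221 and 110 cMono-like cells. At least 1 UMI was found in 13.6%, 14.5% and 40.9% of these cells, and the 5 cells with most held 55.2%, 32.3% and 39.3% of the UMIs. With so few UMIs in naive and D11, a minority of cells with a UMI follows from the count. At D14 there were more UMIs than cells, yet all 140 lay in 45 of the 110 cells, with 12 in 1 cell. The brackets take no account of UMIs gathered in few cells. The shares also rise with depth, whose median was 12708, 13669 and 20930.5 UMIs. In cMono-like cells with at most 3 of the 8 ncMono markers (111, 170 and 52 cells) the level of Tcf7l2 was 14.7 [9.08 to 22.4], 16.3 [11.4 to 22.6] and 37.1 [26.5 to 50.6] CPM. In those with at least 4 (21, 51 and 58 cells) it was 27.5 [11.9 to 54.3], 31.5 [20.6 to 46.1] and 70.2 [57.2 to 85.4] CPM. The D14 value was the highest in both parts, at 2.53-fold [1.46 to 4.52] and 2.55-fold [1.25 to 6.07] of naive. Few cells carried these values. The 5 cells with most Tcf7l2 held 61.9%, 52.8% and 55.0% of its UMIs in the first part. In the second they held 100%, 61.5% and 52.0%. Cebpa was lower at D14 in both parts as well, at 0.434-fold [0.321 to 0.579] and 0.378-fold [0.255 to 0.567], and Klf2 at 0.512-fold [0.455 to 0.576] and 0.449-fold [0.386 to 0.522]. Irf8, past the limit in the whole gate, was inside it at 0.764-fold [0.645 to 0.903] and 0.713-fold [0.531 to 0.969]. In the first part at D14, 1 cell held 30 of the 223 Irf8 UMIs. Nr4a1 at D14 was at 1.53-fold [1.13 to 2.07] of naive in the first part and 1.06-fold [0.706 to 1.63] in the second. Cebpb was at 1.36-fold [1.24 to 1.49] and 1.15-fold [0.9997 to 1.32]. Pou2f2 was at 0.676-fold [0.568 to 0.803] and 0.574-fold [0.465 to 0.714], past the limit in the second part only. The intervals of the parts overlapped for each of these genes. The number of markers found rises with depth, so the same limit may pick unlike cells in each library. Median depth was 12656, 13086.5 and 19148 UMIs in the first part and 12760, 15531 and 22449.5 UMIs in the second. The naive Tcf7l2 value of the second part rests on 8 UMIs in 5 cells.

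A small set of barcodes held at least 5 markers of both monocyte lists. No class led every other by 2 markers in them, so they were counted in neither gate: 23 in naive, 31 at D11 and 45 at D14. Their median depth of 13199, 16043 and 20546 UMIs was near that of cMono-like cells, and doublets and intermediate cells cannot be told apart among them. The 9 genes lay mostly between the gates. Tcf7l2 was at 107 [74.2 to 149.7], 99.3 [74.6 to 129.5] and 180 [155 to 207] CPM there, and Nr4a1 at 180 [136 to 233], 263 [222 to 310] and 217 [189 to 247] CPM. The naive values rest on few barcodes. Of 34 Tcf7l2 UMIs in 10 barcodes, 1 barcode held 18, and of 57 Nr4a1 UMIs 1 barcode held 19. The brackets take no account of this. The intervals of Nr4a1 were apart from those of both gates in every library. Pou2f2 was at 583, 550 and 524 CPM, and Cebpa at 91.4, 82.7 and 50.8 CPM. Some of the barcodes held at least 5 markers of a further class as well. In the 14, 18 and 34 with at most 4 markers of any other class, Tcf7l2 was at 168, 91.1 and 197 CPM. Nr4a1 was at 168, 324 and 224 CPM in them. In naive, 1 of these barcodes held 18 of the 28 Tcf7l2 UMIs.

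**Figure D4:**
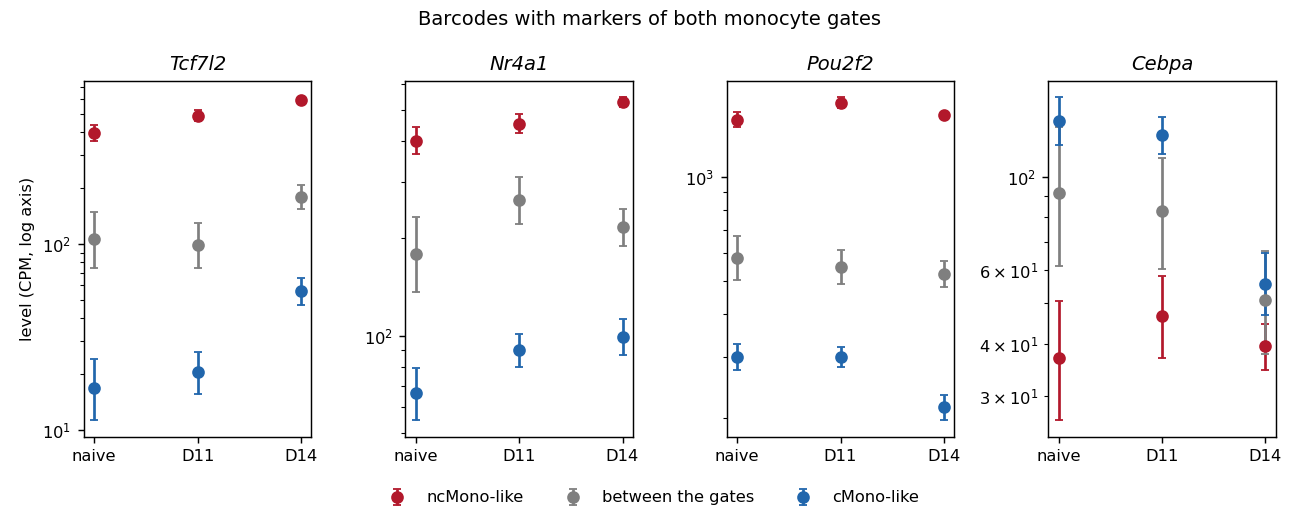
Level (vertical axis, CPM on a log axis) of Tcf7l2, Nr4a1, Pou2f2 and Cebpa in ncMono-like cells (red), in barcodes with at least 5 markers of both lists that were counted in neither gate (grey) and in cMono-like cells (blue) of each library; error bars are exact 95% Poisson intervals. The grey points of Tcf7l2, Nr4a1 and Pou2f2 lie between the others in all 3 libraries.

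Across the blood, Nr4a1, Pou2f2, Klf4, Tcf7l2 and Cebpb were highest in ncMono-like cells in every library, among classes of at least 50 cells. B-like and NK-like cells fell short of that number at D14. For Nr4a1, cMono-like and neutrophil-like cells followed, the latter at 52.2, 53.5 and 40.2 CPM, and in naive these neighbours overlapped within counting error. Every other class was at or below 10.1 CPM. For Pou2f2 the B-like cells came next, at 535 and 493 CPM in naive and D11, and T-like cells were at 46.5, 123 and 135 CPM. Klf4 was at or below 25.2 CPM outside the monocyte gates.

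Cebpb and Spi1 were also high in neutrophil-like cells. Cebpb was at 717, 1133 and 857 CPM in these cells, below ncMono-like cells beyond counting error in every library. It overlapped cMono-like cells within counting error only in naive, and was at or below 36.1 CPM in lymphoid and erythroid classes. Spi1 was at 1003, 902 and 658 CPM in neutrophil-like cells and overlapped ncMono-like cells within counting error in naive and D11. Outside the myeloid classes Spi1 reached 55.2 and 58.8 CPM in B-like cells and 27.7 and 30.2 CPM in pro-B-like cells, the class that holds the leukemia. Cebpa was highest in cMono-like cells, and no UMI of it was found in pro-B-like cells of D11 or D14.

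Klf2 and Irf8 had the widest reach. Klf2 was highest in neutrophil-like cells at 1000.4, 1008 and 815 CPM, and naive NK-like, T-like and B-like cells were at 769, 735 and 679 CPM, while pro-B-like cells held 33.8 and 90.3 CPM at D11 and D14 and erythroid-like cells at most 19.9 CPM. T-like cells had 735, 691 and 446.5 CPM, so their lowest value, too, was at D14. Irf8 was highest in NK-like cells, at 292 and 411 CPM in naive and D11, overlapping cMono-like cells within counting error in naive, and B-like cells held 211 and 183 CPM and pro-B-like cells 101 and 116 CPM (D11 and D14). Neutrophil-like cells were at 1.69, 8.04 and 6.43 CPM.

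**Figure D5:**
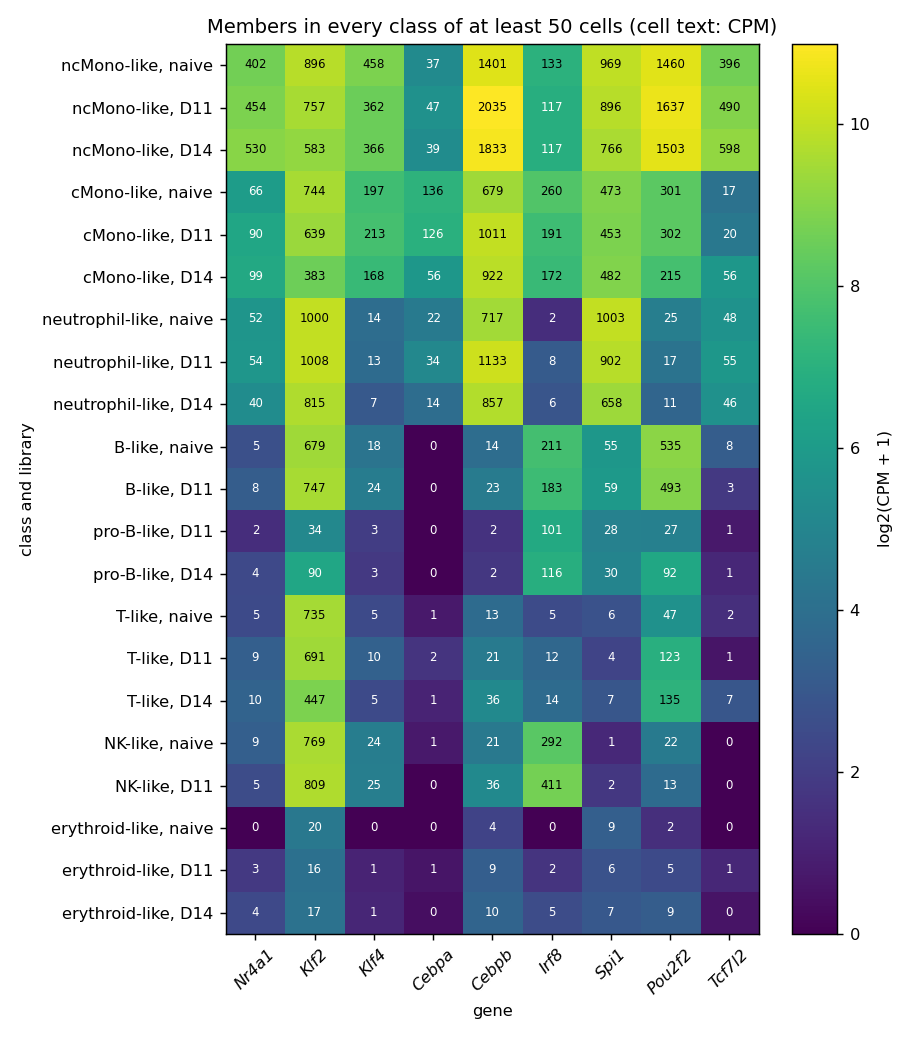
Level of the 9 genes (columns) in every class and library of at least 50 cells (rows); the colour is log2(CPM + 1) and the text in each cell is the CPM. Tcf7l2 and Nr4a1 are brightest in the ncMono-like rows, whereas Klf2 is bright in all rows but the pro-B-like and erythroid-like ones.

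The share of cells with a UMI follows the depth of a cell, so each cell was also thinned to 2000 UMIs. Brackets on shares are Clopper-Pearson 95% intervals. Tcf7l2 was then found in 47.5% [38.3 to 56.8], 57.9% [50.5 to 65.0] and 65.1% [61.1 to 68.9] of ncMono-like cells (86.7%, 86.9% and 94.8% before thinning) and in 2.31%, 2.73% and 8.18% [3.81 to 15.0] of cMono-like cells. T-like cells, which lack the myeloid program and had medians of 9260, 7315 and 7659.5 UMIs, gave 0.168%, 0.429% and 1.98% after thinning and 1.09%, 0.429% and 2.94% before. Nr4a1 was found in 60.0%, 61.6% and 63.6% of thinned ncMono-like cells, a range within the counting intervals, against 10.8%, 16.4% and 15.5% of cMono-like and 0.924%, 2.15% and 0.99% of T-like cells. Before thinning these shares of Nr4a1 were 90.0%, 93.7% and 97.2% in ncMono-like, 44.7%, 53.4% and 76.4% in cMono-like and 3.44%, 5.15% and 6.86% in T-like cells.

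The genes whose pattern was most like that of a member were sought by Pearson's r of log2(CPM + 1) over the 21 class and library sums of at least 50 cells, among 6862 genes. The sums share libraries and differ in depth, so r is a description, and sums of 1 class weigh alike. Nearest to Tcf7l2 were Treml4 (0.95), which is also a marker of the ncMono gate, Olr1 (0.95) and Cd300ld (0.94). Nearest to Nr4a1 were Krt80 (0.95), Naip2 (0.94) and Arrb1 (0.94), and to Pou2f2 Inpp5f (0.97), Rab39 (0.94) and Filip1l (0.93). Klf4 was followed by Rras (0.96), Acer3 (0.95) and Naip6 (0.95), where Naip2 and Naip6 are related genes whose reads the counting may split. Klf2 ran with the leukocyte genes Cd53 (0.99), Ptprc (0.98) and Btg2 (0.98), Spi1 with Csf2rb (0.98) and Aldh3b1 (0.98), and Cebpa with Lyz2 (0.98), Gm1673 (0.98) and Ifitm3 (0.97). For Cebpb they were Nod2 (0.97), 6430548M08Rik (0.97) and Csf2ra (0.97), and for Irf8 Lrrk1 (0.94), BC035044 (0.93) and Gnas (0.93). Between members, r was highest for Nr4a1 and Cebpb (0.94), Nr4a1 and Tcf7l2 (0.94) and Cebpa and Cebpb (0.93), and lowest for Irf8 and Spi1 (0.17).

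Family relatives of the members lay on both sides of the comparison of the gates. Of 36 listed, 22 reached a mean of 20 CPM in the naive monocyte sums, and 7 were at least 1.5-fold higher and 4 lower in ncMono-like cells, beside 23.3% and 17.2% of all genes, with a median log2 ratio of 0.41 against 0.10 over all genes. At D11 6 of 22 were higher and 2 lower, beside 18.7% and 16.3% (median 0.10 against 0.07), and at D14 11 of 23 were higher and 2 lower, beside 23.6% and 21.1% (median 0.56 against 0.08). Ets1, an ETS factor related to PU.1, was at 86.3, 101 and 172 CPM in ncMono-like and at 14.5, 2.97 and 2.40 CPM in cMono-like cells. Spic, the PU.1 relative of iron-recycling macrophages, was at 10.4 CPM in naive and 56.4 CPM in D14 ncMono-like cells. Cebpd was lower in ncMono-like cells in all libraries, by a log2 ratio of -1.47, -1.49 and -1.51. Irf7 was lower at D14 than in naive in both gates, with log2 ratios of -1.79 in ncMono-like and -2.25 in cMono-like cells.

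Of 25 other transcription factors of monocytes and macrophages, 19, 20 and 18 reached the minimum in the comparison of the gates in naive, D11 and D14. In ncMono-like cells 6 were higher and 5 lower in naive (median log2 ratio of 0.06 against 0.10), 5 and 5 at D11 (0.15 against 0.07) and 7 and 4 at D14 (0.30 against 0.08), with the shares of all genes as for the relatives. Pparg had log2 ratios of 5.71, 6.28 and 6.06, and Bhlhe40 of 2.85, 2.38 and 2.32. The aryl hydrocarbon receptor Ahr was on the cMono side, at -3.04, -3.39 and -3.56. In cMono-like cells at D14, 2 of 18 were higher and 4 lower than in naive, beside 13% and 10.7% of all genes (median -0.23 against 0.03), with Maf at -2.64, Batf3 at -2.43 and Ahr at -1.53.

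Immediate early and stress genes respond to handling of cells as well as to signals, and Nr4a1 and Klf2 are induced with them in many cells. In cMono-like cells at D14, 16 of 17 reached the minimum, with 4 higher and 7 lower than in naive, beside 13% and 10.7% of all genes (median -0.24 against 0.03): Dusp1 had a log2 ratio of -2.22 and Atf3 of -1.90. In ncMono-like cells at D14, 3 of 15 were higher and 1 lower, beside 7.97% and 8.41% of all genes (median 0.09 against -0.01). Nfkbia was at 1.19 and Atf3 at -1.81 in these cells. Hspa1a and Hspa1b, whose near-identical reads the counting may split, went from 5.69 and 5.69 CPM in naive to 520.5 and 711 CPM at D14 in ncMono-like cells. The part of these genes in the values of Nr4a1 and Klf2 was not tested.

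Lists of genes placed downstream of the members held genes on both sides. TCF partners and Wnt feedback genes were mostly under the minimum: 4 of 14 reached it in the comparison of the gates at D14, with 1 higher, 2 lower and a median log2 ratio of -0.59 against 0.08, beside 23.6% and 21.1% of all genes. Tle4, a corepressor, was higher in ncMono-like cells at 0.80, 0.80 and 0.83, and Ctnnb1, which encodes β-catenin, was at -0.42, -0.31 and -0.49. In cMono-like cells at D14, where Tcf7l2 was above naive, 1 of 4 was higher and 0 were lower, beside 13% and 10.7% of all genes, with Ctnnb1 at 0.62. Of 7 genes known to depend on KLF2, 4 reached the minimum at D14, with 2 higher and 2 lower in ncMono-like cells, beside 23.6% and 21.1% of all genes (median 0.17 against 0.08). S1pr5, a receptor for a lipid signal that guides cells into the blood, had log2 ratios of 4.52, 4.46 and 5.90, and Itgb7, an integrin chain, of -1.24, -1.67 and -1.98. The cMono side of S1pr5 rests on 12, 18 and 5 UMIs, and its level in ncMono-like cells was 160, 130 and 119 CPM. Against naive, where Klf2 was lower, Itgb7 in cMono-like cells at D14 was at 0.31 and S1pr5 in ncMono-like cells at -0.43, both inside 1.5-fold.

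Of 16 myeloid genes known to be bound by PU.1 or C/EBP, 12 reached the minimum in naive, with 1 higher and 4 lower in ncMono-like cells, beside 23.3% and 17.2% of all genes (median -0.25 against 0.10). At D11 1 of 13 was higher and 4 lower, beside 18.7% and 16.3% (-0.34 against 0.07), and at D14 2 and 3 of 13, beside 23.6% and 21.1% (-0.11 against 0.08). Csf1r, the receptor that monocytes need to survive, was at log2 ratios of 0.88, 1.40 and 1.89, and Lyz2, lysozyme, was at 6519.8, 6074 and 3786 CPM against 26072, 21588 and 12397 CPM in cMono-like cells. Against naive, ncMono-like cells at D14 had 4 of 12 higher and 5 lower, beside 7.97% and 8.41% of all genes (median 0.17 against -0.01). Cebpa was at 1.07-fold [0.758 to 1.53] of naive in those cells. In cMono-like cells at D14, Cebpa was below naive. There 4 of 14 genes of the list were higher and 3 lower than in naive, beside 13% and 10.7% of all genes (median -0.13 against 0.03). Prtn3, a granule protease of immature myeloid cells, was at 24.4, 68.6 and 223.5 CPM there, while Lyz2 was at a log2 ratio of -1.07 and Fcgr1 of -1.81. Of 6 genes known to depend on IRF8, 4 reached the minimum in that comparison, with 0 higher and 2 lower, beside the same shares (median -0.53 against 0.03), namely Il18 at -1.66 and Cst3 at -0.71.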

How the data were processed

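Blood cells of 3 libraries (naive, D11 and D14) were profiled with 10x Genomics 3′ v3 reagents. The authors deposited raw UMI counts per gene and barcode as filtered Cell Ranger matrices. The submitters' processing notes name Cell Ranger 7.1.0 and mm10, while the file headers name 5.0.1. The deposited files hold no cell names.

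A barcode was kept if it had 200 genes or more and no more than 10% mitochondrial UMIs (3811, 4567 and 4414 of 5386, 8536 and 9337), with medians of 6031, 6389 and 6781 UMIs. Classes were gated as given with the results, which placed 86.2%, 83.7% and 86.5% of the cells. Barcodes without a lead of 2 markers over every other class stayed ungated, which removes some doublets but not all, since gated cells may hold several markers of another class. Leaving out high Scrublet scores (scanpy 1.11.5) was an alternative. The scoring of the gates was run on 800 simulated cells of equal depth, drawn from the D11 sums of the ncMono, cMono, neutrophil and T gates. Of these, 99.4% were placed in the class they were drawn from. The sums came from cells chosen by the same markers and no doublets were simulated, so this checks the code and not the labels. In Poisson counts simulated for ncMono D14 over naive over 6069 genes, 200 of 200 changed genes had the right direction and 95.8% of intervals held the true ratio. The intervals assume such counts, so this too checks the code only. UMIs were summed per class and library. A ratio against 0 UMIs was set to a floor of 3 counts. Alternatives changed the barcode filter, gates, doublets, scaling or depth, 1 at a time. Intervals came from scipy 1.17.1 and TMM factors from edgeR 4.0.16. Each condition had 1 library, so nothing was tested, and past 1.5-fold is a limit of size.

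Named genes were the 9 members, the 3 genes most like each, and in each list genes among the 4 with the largest ratio at 50 CPM or more in either sum. The limits of 3 and 4 ncMono markers in the cMono gate, the CRE half-site and GC box, and the values of Pparg beside Tcf7l2 were chosen after values were seen. The members and lists were chosen with earlier results of these data known. Gene positions are from GENCODE vM21. The promoter window of Spi1 and protein sequences were not used here, and some genes that the rule names are not reported here.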

Additional observations from a re-analysis of the deposited data

How the results depend on the processing

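With 1 library per condition no replicate could be left out. The comparison of the gates is paired, since both gates come from the same libraries, and its ratios were taken within each library. No test was run on these pairs. Each condition has 1 library, so no pairing between conditions was possible. Of 63 ratios of the 9 genes, all 63 stayed within their counting interval with all barcodes, with the stricter filter of 500 genes and 5% mitochondrial UMIs, with 1 marker more or fewer and without Scrublet doublets. TMM factors moved 4, CPM without ribosomal protein, mitochondrial and hemoglobin genes 8, the mean of per-cell CPM 3 and thinning 19, and none that was past 1.5-fold changed side. Thinning took Klf4 in ncMono-like cells at D11 over naive from 0.790 to 1.03. UMIs per cell left 20 within their interval. Among ratios past 1.5-fold it reversed 5: Klf2 (0.693), Klf4 (0.992), Cebpb (0.906) and Spi1 (0.724) in ncMono over cMono at D14, and Irf8 (1.15) in cMono-like cells at D14 over naive. Ratios inside 1.5-fold whose interval was on 1 side of 1 turned too: Klf2 in ncMono over cMono in naive (0.811) and at D11 (0.794), and Klf4 (1.48) and Pou2f2 (1.25) in cMono-like cells at D14 over naive.

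Counts past 1.5-fold depend on genes near that limit. Under UMIs per cell, ncMono over cMono had 3 genes higher at D11, and 3 higher and 2 lower at D14, where 1 was lower without Scrublet doublets or by the mean of per-cell CPM and 2 without ribosomal, mitochondrial and hemoglobin genes. In ncMono-like cells at D11 over naive, 1 was higher with TMM, the mean of per-cell CPM and UMIs per cell, and 2 after thinning. At D14, 0 were higher with 1 marker fewer, without Scrublet doublets and by the mean of per-cell CPM, and 3 by UMIs per cell. 0 were lower with TMM, the mean of per-cell CPM and UMIs per cell. In cMono-like cells at D11 over naive, 1 was higher with the stricter barcode filter, TMM, UMIs per cell and thinning. At D14, 2 were higher with all barcodes, 1 marker more or fewer, without Scrublet doublets, without ribosomal, mitochondrial and hemoglobin genes, by the mean of per-cell CPM and after thinning, and 4 by UMIs per cell, where 0 were lower. The scaling itself is what differs for UMIs per cell, by a log2 shift of -1.13 for ncMono over cMono and of 0.80 for cMono-like cells over naive at D14. TMM factors also shift every gene of a comparison alike. Their log2 shift over naive was 0.09 and 0.10 for ncMono-like cells at D11 and D14, and 0.06 for cMono-like cells at D11. Without ribosomal, mitochondrial and hemoglobin genes the shift was -0.15 for ncMono over cMono at D14 and 0.04 for cMono-like cells at D14 over naive. For the remaining settings the cause was not tested. An alternative added after the data were seen, cMono-like cells with at most 3 ncMono markers, moved Irf8 to 0.764 at D14 over naive and no other of the 18 ratios beyond its interval. Of the 223 Irf8 UMIs of these D14 cells, 1 cell held 30. Levels near 17 CPM rest on 29 UMIs (Tcf7l2 in naive cMono-like cells), so only large ratios can be seen there.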
